A study of Capra hircus with 13 samples.

Results

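A set of 13 genes had a transient peak at the 4-cell stage of goat embryos, out of 18159 gene names listed once each in the tables of MII oocytes, 4-cell embryos and 8-cell embryos. The genes were chosen by their FPKM (fragments per kilobase of gene, scaled to a fixed number of mapped fragments) in these libraries. The lowest 4-cell FPKM had to be at least 5 and at least 2 times the highest FPKM of all MII and untreated 8-cell libraries, with at least 1 MII library at 1 FPKM or more. Names starting with ZNF, SLC, RPL, RPS, MRP or NDUF were left out, and *ZNF32* was the one name so removed that met the limits on the values. Of the 18159 names, 4708 reached 5 FPKM in every 4-cell library, 4683 of them also had an MII library at 1 FPKM or more, and 4451 remained without the excluded name groups. Stage differences of the 13 genes are given as values without a test, since the genes were selected on them.

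The study asked how the m6A reader YTHDF2 acts on the maternal transcriptome in goat (Capra hircus) embryos. It holds 3 libraries of MII oocytes, 3 of untreated 4-cell embryos, 3 of untreated 8-cell embryos, 2 of 8-cell embryos injected with NC siRNA and 2 of 8-cell embryos injected with YTHDF2 siRNA. The untreated libraries came from earlier studies of the same authors, and which study gave which library is not stated, so the stage and the study cannot be told apart. The injected embryos were produced by in vitro fertilization (IVF) and injected as zygotes 8 h after IVF with siRNA at 20 µM, and 15 embryos were pooled in each injected library. NC siRNA was a universal negative control, so both injected groups share fertilization in vitro and the injection itself. The column labels of the untreated 4-cell and 8-cell embryos also read IVF, so IVF does not set these apart from the injected embryos. No strain or age was given for the animals used here.

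After fertilization an embryo first lives on RNA stored in the oocyte. This maternal RNA is cleared while the embryo's own genome is switched on, a change called the maternal-to-zygotic transition, and the main wave of genome activation in goat falls at about the 8-cell stage. YTHDF2 binds N6-methyladenosine (m6A) in RNA and recruits the deadenylation machinery, which shortens the life of the RNA.

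Depth and quality of the libraries set how finely these values could be read. The untreated libraries held 26853876 to 42495116 fragments, recovered from the whole-fragment steps of the FPKM values. The 13 genes rested on 13 to 46584 fragments per library. The depth of the injected libraries is unknown, since their values did not show such steps. Those values are given to 2 decimals, and the untreated 4-cell and 8-cell values still showed steps when rounded likewise. Replicates correlated by 0.921 to 0.987 across genes within each group. All 9 measured oocyte markers were above 0 in every library. The summed FPKM of these markers was 3873 to 5750 in the untreated 8-cell libraries, 2068 to 3117 in the NC libraries and 4324 to 4659 in the knockdown libraries. In pooled embryos, a change in RNA per cell and a change in the number of cells or embryos with that RNA cannot be told apart.

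The 13 genes are arranged here by known function, without a test. *SCPEP1*, *SAR1B* and *PLEKHA3* act in the secretory and lysosomal system. *FZD6*, *YES1* and *LTBP1* act in signalling at the cell surface and outside the cell. *PCGF6* and *FOXI3* act on transcription in the nucleus, and *TRMT10A* modifies transfer RNA. *C5H12orf60* is an uncharacterised open reading frame, and *LOC108633777*, *LOC102186205* and *LOC102190867* carry no gene symbol. In the RefSeq gene table of assembly ARS1.2, 12 of the 13 were protein-coding and *LOC102190867* was a transcribed pseudogene.

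Across the 13 genes, the ratio of the lowest 4-cell FPKM to the highest MII or untreated 8-cell FPKM ran from 2.08 to 7.39, and this ratio is what the rule used. Its median over the 4451 eligible names was 0.65 and its 99th percentile 1.64. A ratio of 1 or more was found for 674 names and one of 1.5 or more for 87. The members nearest to the limit were *FOXI3* (2.08), *C5H12orf60* (2.1) and *TRMT10A* (2.21). Just outside it were *WRB* (1.97), *NADK2* (1.95) and *DSCC1* (1.94), so no gap separated the 13 genes from the rest.

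**Figure D1:**
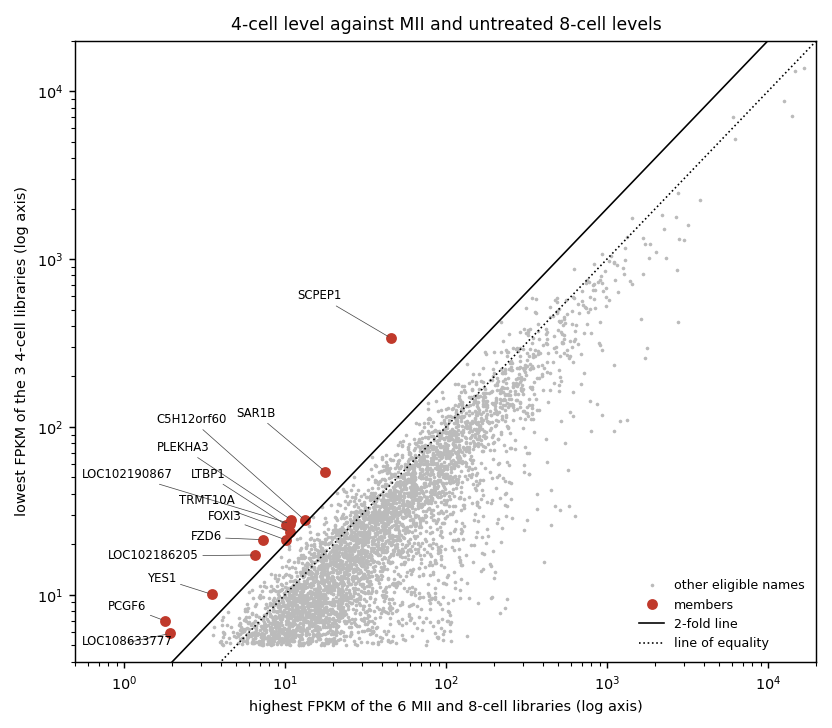
Each point is 1 of the 4451 eligible names, with the highest FPKM of the 6 MII and untreated 8-cell libraries on the horizontal log axis and the lowest FPKM of the 3 4-cell libraries on the vertical log axis; red points are the 13 members. The members lie above the solid 2-fold line, with *SCPEP1* at a ratio of 7.39 far from the others and *FOXI3* at 2.08 next to the line.

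*SCPEP1* encodes serine carboxypeptidase 1, a retinoid-inducible protease of the lysosomal and secretory system. Its FPKM was 14.7, 45.7 and 30.5 in the MII libraries, 338, 379 and 835 in the 4-cell libraries, and 6.78, 8.01 and 7.32 in the untreated 8-cell libraries. By FPKM, which is per gene length, it was the most abundant of the 13 at the 4-cell stage, with means 17.1-fold above MII and 70.2-fold above the untreated 8-cell stage. The untreated 8-cell libraries lay below every MII library. The 3 4-cell libraries differed by a coefficient of variation of 53.4%, the widest of the 13, and replicate 3 stood above the other two.

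*SAR1B* encodes the small GTPase that starts the COPII coat, which forms vesicles leaving the endoplasmic reticulum for the Golgi. Its FPKM was 4.66, 5.03 and 4.09 in MII oocytes, 85.7, 54.2 and 108.9 in 4-cell embryos, and 6.54, 17.6 and 17.8 in untreated 8-cell embryos. The 4-cell mean was 18.0-fold above MII and 5.94-fold above the untreated 8-cell mean. Unlike *SCPEP1*, every untreated 8-cell library stayed above every MII library. *SAR1B* overlaps the long non-coding RNA *LOC102176322* in the RefSeq table. The settings of the counting were not stated, strand among them, so how reads of the overlap were counted is not known.

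*PLEKHA3*, also known as FAPP1, binds phosphatidylinositol 4-phosphate at the trans-Golgi network. It had an FPKM of 6.25, 6.65 and 6.86 in MII oocytes, 62.4, 28.0 and 51.5 in 4-cell embryos, and 4.20, 10.9 and 8.84 in untreated 8-cell embryos. The 4-cell mean was 7.18-fold above MII, and the MII and untreated 8-cell libraries overlapped.

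Of the signalling genes, *FZD6* encodes a Frizzled receptor of WNT ligands that also works in planar cell polarity. It had 7.27, 1.49 and 1.79 FPKM in MII oocytes, 21.3, 21.3 and 24.2 in 4-cell embryos, and 2.36, 1.01 and 3.19 in untreated 8-cell embryos. The 4-cell libraries agreed most closely here, with a coefficient of variation of 7.36%, the lowest of the 13, while MII replicate 1 stood above the other two MII libraries.

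*YES1* encodes a tyrosine kinase of the SRC family. It had 2.61, 2.18 and 1.02 FPKM in MII oocytes, 12.3, 10.1 and 11.7 in 4-cell embryos, and 0.96, 3.51 and 1.83 in untreated 8-cell embryos. *LTBP1* encodes a latent transforming growth factor beta (TGF-β) binding protein, which tethers the inactive growth factor to the extracellular matrix. Its values were 10.2, 9.21 and 7.94 FPKM in MII oocytes, 36.5, 26.0 and 30.7 in 4-cell embryos, and 9.23, 6.12 and 7.95 in untreated 8-cell embryos. For both genes the MII and untreated 8-cell libraries overlapped. The 4-cell mean of *LTBP1* was 3.41-fold above MII, the smallest of the 13.

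*PCGF6* encodes the ring finger protein that defines the Polycomb complex PRC1.6, a repressor of germline genes. It had 1.5, 1.6 and 1.54 FPKM in MII oocytes, 15.6, 7.09 and 7.01 in 4-cell embryos, and 1.37, 1.79 and 0.88 in untreated 8-cell embryos. The level at the 4-cell stage was modest, and replicate 1 was well above the other two 4-cell libraries. *FOXI3* encodes a forkhead transcription factor known from ectodermal and pharyngeal development. Its FPKM was 4.14, 3.94 and 3.38 in MII oocytes, 21.2, 28.9 and 22.8 in 4-cell embryos, and 6.03, 9.72 and 10.2 in untreated 8-cell embryos. As for *SAR1B*, every untreated 8-cell library of *FOXI3* was above every MII library, and its 4-cell mean was 2.81-fold above the untreated 8-cell mean, the smallest of the 13.

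*TRMT10A* encodes a methyltransferase that places a methyl group on a guanine of transfer RNAs. It had 3.81, 10.8 and 6.02 FPKM in MII oocytes, 30.7, 23.8 and 36.3 in 4-cell embryos, and 5.25, 4.66 and 3.87 in untreated 8-cell embryos. MII replicate 2 stood above the other MII libraries, and its value set the ratio of 2.21 that placed the gene near the limit. *C5H12orf60* had 6.86, 9.29 and 6.74 FPKM in MII oocytes, 43.1, 27.9 and 49.3 in 4-cell embryos, and 8.95, 13.3 and 10.3 in untreated 8-cell embryos. The MII and untreated 8-cell libraries overlapped for both genes.

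The 3 names without a symbol differed in how far the level returned. *LOC108633777* had 1.10, 1.94 and 1.83 FPKM in MII oocytes, 8.85, 8.64 and 5.89 in 4-cell embryos, and 0.69, 1.26 and 0.99 in untreated 8-cell embryos. *LOC102186205* had 6.54, 4.99 and 4.89 FPKM in MII oocytes, 30.1, 17.3 and 36 in 4-cell embryos, and 1.09, 1.58 and 1.35 in untreated 8-cell embryos. It is the shortest of the 13, with 438 bases, and its untreated 8-cell values rest on 13, 19 and 18 fragments, so they carry a wide counting error. The pseudogene *LOC102190867* had 2.08, 3.21 and 0.83 FPKM in MII oocytes, 26.5, 30.7 and 35.0 in 4-cell embryos, and 7.30, 10.8 and 7.80 in untreated 8-cell embryos. Reads of a pseudogene can be shared with its parent gene, so its values are uncertain even though only uniquely mapped reads were kept.

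The place of the untreated 8-cell level beside MII differed between the genes. The untreated 8-cell libraries lay above all MII libraries for 3 of the 13 genes (*SAR1B*, *LOC102190867* and *FOXI3*), against 44.9% of the 4451 eligible names. They lay below all MII libraries for 2 (*SCPEP1* and *LOC102186205*), against 14.5%, and overlapped them for 8. The rule used these libraries, so nothing is read from the counts. The 4-cell library with the lowest value was replicate 2 for 8 of the 13 genes, and the highest untreated 8-cell value came from replicate 2 for 8 of the 13. Leaving out 4-cell replicate 2 raised the number of names that meet the rule from 13 to 39, and leaving out 8-cell replicate 2 raised it to 20, with all 13 among them each time.

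**Figure D2:**
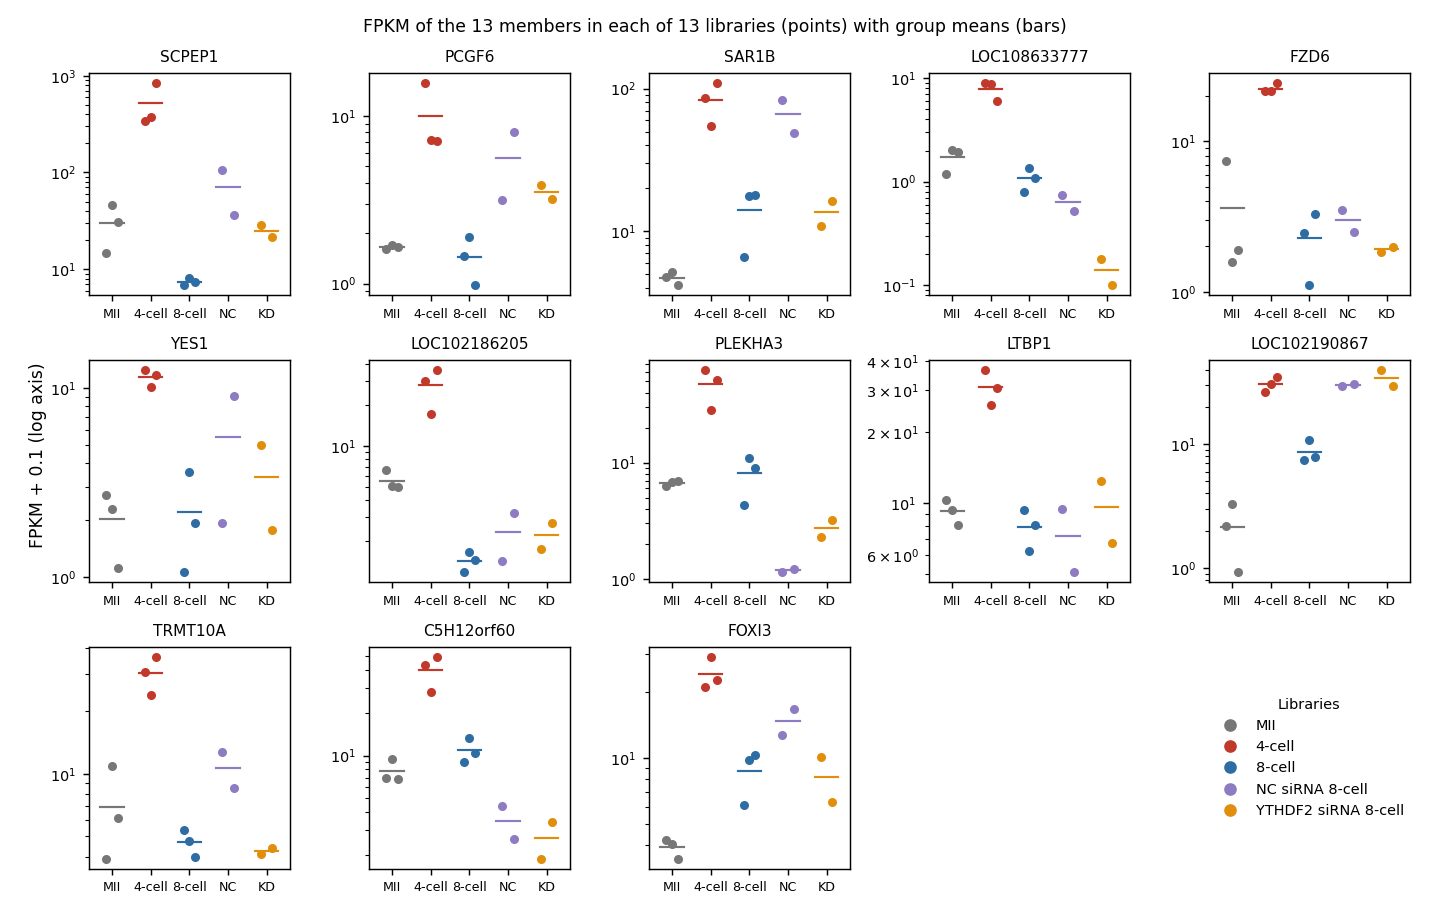
Each panel shows 1 of the 13 members, with FPKM + 0.1 on a log axis of its own; points are libraries and bars are group means (n = 3 for MII, 4-cell and 8-cell, n = 2 for NC siRNA, marked NC, and YTHDF2 siRNA, marked KD). The 4-cell points stand above all MII and untreated 8-cell points by choice of the genes, whereas the NC points come near to the 4-cell level for *SAR1B* and *LOC102190867* and stay far below it for *PLEKHA3*.

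The 13 genes were also ranked on a scale that does not depend on the library total. Ranked among the 18138 names listed in all 13 libraries, the mean percentile of the 13 genes had a median of 72.1 over the MII, 88.5 over the 4-cell and 73.5 over the untreated 8-cell libraries. It was 65.8 over the NC and 61.4 over the knockdown libraries. *SCPEP1* reached the 99.1st to 99.7th percentile in the 4-cell libraries and the 70.4th to 76.4th in the untreated 8-cell libraries. The ranks come from the same libraries that chose the genes and are a description.

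**Figure D3:**
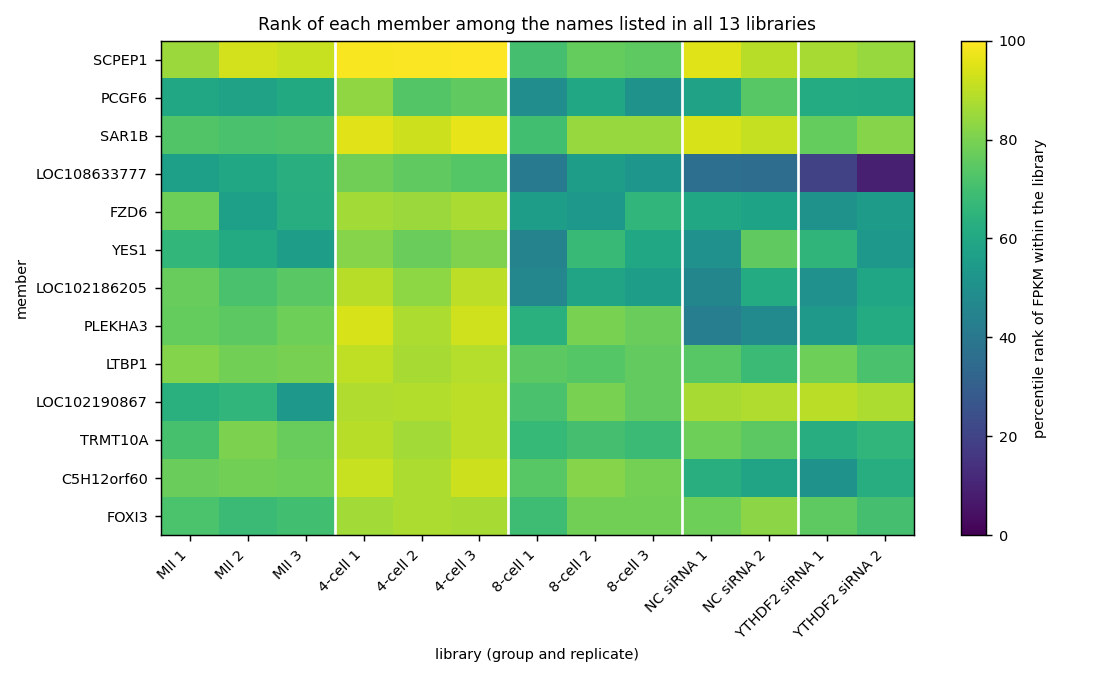
Colour gives the percentile rank of FPKM within each library (columns, in the order MII, 4-cell, 8-cell, NC siRNA and YTHDF2 siRNA) for the 13 members (rows), from 0 to 100. The 4-cell columns are the brightest in the untreated libraries, and *LOC108633777* is the darkest member in the injected libraries.

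Genes related to the 13 were held against the same rule. The lists of complex partners and relatives were drawn up once the 13 genes were known. None of the 11 other COPII genes, the 13 other PRC1.6 genes or the measured relatives and ligands (PCGF, FZD, SRC family, LTBP, TGF-β, TRMT10, FOXI and PLEKHA genes) met it. Only 13 of the 4451 eligible names met it at all, and 7 of the COPII genes, 7 of the PRC1.6 genes and 0 of the FZD, SRC family, LTBP and FOXI relatives were eligible, so nothing about the relatives is read from this. The highest ratios among them were those of *PLEKHA8* (1.24, from 4-cell values of 1.74 to 2.88 FPKM that lie under the limit of 5), *RNF2* (1.14), which encodes a catalytic subunit of PRC1, and *SEC23A* (1.11), a COPII coat gene. The sister gene *SAR1A* had 196, 250 and 235 FPKM at the 4-cell stage and 326, 291 and 376 in untreated 8-cell embryos, so its level was higher at the later stage. Of 12 functional lists by gene symbol, only 2 held a member: *PCGF6* was 1 of 118 histone and chromatin modifiers and *FZD6* 1 of 88 growth factor and signalling genes. *SAR1B* lies next to *SEC24A* in the RefSeq table, a gene of the same coat, whose ratio was 0.61. Of the 26 measured genes flanking the 13 members, 1 had a ratio of at least 1 (*MTTP*, next to *TRMT10A*, 1.23) and 0 reached 2.

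The NC siRNA libraries were not used to choose the genes, and show the 8-cell stage in a second set of embryos. They were normalized apart from the untreated libraries, so levels are set side by side here and below without a test. Both NC libraries lay below all 4-cell libraries for 10 of the 13 genes and overlapped them for *PCGF6*, *SAR1B* and *LOC102190867*. Both lay below them for 58.0% of the 4439 eligible names found in all tables. The count was 9 of 13, against 59.1% of these names, when all 13 libraries were rescaled by median ratios, which was chosen after seeing the data. The lowest 4-cell value was at least 2 times the highest NC value for 7 of the 13: *SCPEP1*, *LOC108633777*, *FZD6*, *LOC102186205*, *PLEKHA3*, *LTBP1* and *C5H12orf60*. The same held for 34.2% of the eligible names. The rule chose high 4-cell values, so nothing about the 13 genes is read from either count.

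*SAR1B* had 83.6 and 48.8 FPKM in the NC libraries, both above all untreated 8-cell values. Replicate 1 lay between the 4-cell values and replicate 2 below the lowest of them, 54.2. *LOC102190867*, with 29.6 and 30.8 FPKM, lay within its 4-cell range in both NC libraries. *PLEKHA3*, with 1.05 and 1.12 FPKM, was below every MII and untreated 8-cell library. Both NC libraries lay above all untreated 8-cell libraries for 6 of the 13 genes (*SCPEP1*, *PCGF6*, *SAR1B*, *LOC102190867*, *TRMT10A* and *FOXI3*), against 23.0% of the eligible names. They lay below all of them for 3 (*LOC108633777*, *PLEKHA3* and *C5H12orf60*), against 54.0%. The rule chose low untreated 8-cell values, so these counts are not independent of it and nothing about the 13 genes is read from them. The summed FPKM of 8 measured markers of trophectoderm, the outer lineage of the blastocyst, also differed between the sets, at 12 to 32.8 in the untreated 8-cell libraries and 168 to 228 in the NC libraries. *TFAP2C* and *KRT8* made up most of the sum in the NC libraries. *GATA3*, a defining marker, lay the other way, with 5.10, 5.63 and 5.93 FPKM in the untreated 8-cell and 2.25 and 1.21 in the NC libraries. *CDX2* was at most 0.32 FPKM in all of these libraries, and *CDX2*, *GATA2* and *TFAP2A* overlapped between the sets. The part of embryo timing in these differences was not tested.

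The knockdown comparison asked how the 13 genes behaved in 8-cell embryos with less *YTHDF2*. It used a mixture of 2 siRNAs, whose antisense strands are shown because they are the molecules that set the 2 injected groups apart. They are written 5′ to 3′ with the seed, bases 2 to 8, in capitals.
s28148: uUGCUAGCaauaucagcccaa
s28147: uGGUCUAUaguauucaugcca
The 2 seeds differ. *YTHDF2* itself had 112 and 159 FPKM in the NC libraries and 8.07 and 4.47 in the knockdown libraries. It fell by 4.25 on the log2 scale (SE 0.43, adjusted p = 3.7e-04, limma on log2(FPKM + 1)), and all adjusted p below are from this fit across 11004 genes. In the untreated libraries *YTHDF2* had 2.59 to 3.28 FPKM in MII, 3.38 to 5.69 FPKM in 4-cell and 10.8 to 16.7 FPKM in 8-cell libraries, each range above the one before.

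Of the 13 genes, 12 passed the filter of a mean of at least 1 FPKM in the injected libraries, and *LOC108633777* did not. A gene was called where the unadjusted p was under 0.05 and the change more than 2-fold, the rule of the study. By this rule 3 of the 12 fell (*SAR1B*, *SCPEP1* and *TRMT10A*) against 15.3% of all 11004 genes, and 0 rose against 9.48%. With the adjusted p in the same rule, 1 fell (*SAR1B*) against 5.92% of all genes, and 0 rose against 2.06%. The knockdown libraries lay below both NC libraries for 5 of the 12 against 30.7% of all genes, and above both for 1 (*PLEKHA3*) against 30.3%. The median log2 fold change of the 12 was -0.43, with 8 below 0 and 4 above, and that of all genes was 0.0054. Over the fewer members that passed a filter at a mean of 5 FPKM it was -0.97. The counts of 3 and 1 among 12 genes were near these backgrounds, and nothing particular to the set is read from them.

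**Figure D4:**
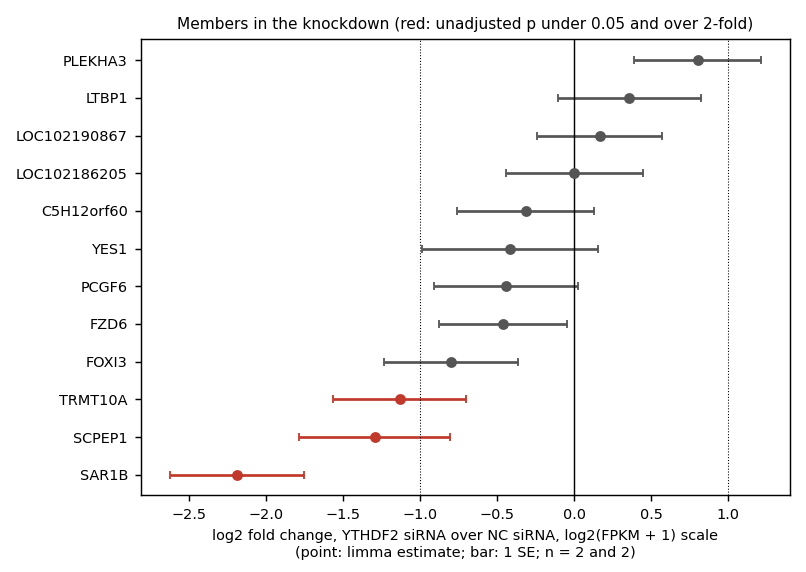
Points are log2 fold changes of the 12 tested members, YTHDF2 siRNA over NC siRNA, on the log2(FPKM + 1) scale, with bars of 1 SE (limma, n = 2 and 2 libraries); dotted lines mark 2-fold changes. *SAR1B* at -2.19, *SCPEP1* at -1.30 and *TRMT10A* at -1.13, in red, passed the unadjusted rule, and *PLEKHA3* at 0.80 is the furthest on the other side.

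*SAR1B* had 83.6 and 48.8 FPKM in the NC libraries and 10.8 and 16.2 in the knockdown libraries, so the groups lay apart. It fell by 2.19 on the log2 scale (SE 0.44, adjusted p = 0.012), the largest fall of the 12. On values normalized apart, both knockdown libraries lay within the range of the untreated 8-cell libraries, 6.54 to 17.8 FPKM, whereas both NC libraries were above it. The fall passed the unadjusted rule under all 11 alternatives, including the removal of each library. The adjusted p ran from 9.6e-06 to 0.173 over them and was above 0.05 without NC replicate 1 (0.074) and without the filter on low values (0.173).

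*SCPEP1* had 106 and 36.3 FPKM in the NC libraries and 28.5 and 21.4 in the knockdown libraries. It fell by 1.30 (SE 0.49, adjusted p = 0.105), and the groups lay apart, but the 2 NC values differed from each other more than NC replicate 2 did from the knockdown. Without NC replicate 1 the log2 fold change was -0.54 and the call was lost, and it was also lost without the filter on low values, at -1.30. Both knockdown values remained above the untreated 8-cell libraries.

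*TRMT10A* had 12.6 and 8.42 FPKM in the NC libraries and 4.02 and 4.30 in the knockdown libraries. The groups lay apart, and it fell by 1.13 (SE 0.43, adjusted p = 0.106). The call was lost without NC replicate 1, at a log2 fold change of -0.87, and without knockdown replicate 1, at -1.09. The knockdown values lay within the untreated 8-cell range of 3.87 to 5.25 FPKM.

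Some other members lay apart between the groups without passing the rule. *FOXI3* had 12.6 and 16.7 FPKM in the NC libraries and 9.99 and 6.23 in the knockdown libraries (log2 fold change -0.80, SE 0.43, adjusted p = 0.23). *FZD6* had 3.40 and 2.41 FPKM against 1.75 and 1.87 (log2 fold change -0.46, SE 0.42, adjusted p = 0.47). *PLEKHA3* was the one member with both knockdown values above both NC values, at 2.2 and 3.13 against 1.05 and 1.12 FPKM (log2 fold change 0.80, SE 0.41, adjusted p = 0.21). Even so, its knockdown values stayed below all untreated 8-cell libraries. *LOC108633777*, which was not tested, had 0.65 and 0.42 FPKM in the NC libraries, and 0.08 and 0 in the knockdown libraries.

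The remaining members overlapped between the groups. *PCGF6* had 3.04 and 7.95 FPKM against 3.79 and 3.09 in the knockdown (log2 fold change -0.44, SE 0.47, adjusted p = 0.55). *YES1* had 1.83 and 8.92 FPKM against 4.90 and 1.67 (log2 fold change -0.42, SE 0.57, adjusted p = 0.65), with as wide a spread within each group as between them. *LTBP1* had 9.31 and 4.99 FPKM against 12.2 and 6.67 (log2 fold change 0.36, SE 0.46, adjusted p = 0.63). *LOC102190867* had 29.6 and 30.8 FPKM against 39.6 and 29.3 (log2 fold change 0.17, SE 0.41, adjusted p = 0.80). *C5H12orf60* had 4.30 and 2.47 FPKM against 1.78 and 3.28 (log2 fold change -0.31, SE 0.44, adjusted p = 0.66). *LOC102186205* had 1.33 and 3.13 FPKM against 1.67 and 2.61 (log2 fold change 0.0012, SE 0.44, adjusted p = 0.999). With standard errors of 0.41 to 0.57, the data do not show that these 6 genes were unaffected.

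Partners of the members were read from the same fit. Of the 10 tested COPII genes beside *SAR1B*, 2 fell and 1 rose by the unadjusted rule, against 15.3% and 9.48% of all genes. Those that fell were *SEC24B* (log2 fold change -1.28, adjusted p = 0.078), which encodes a cargo-binding coat subunit, and *PREB* (-1.16, adjusted p = 0.114), the exchange factor that activates SAR1 proteins. *SEC13*, a subunit of the outer coat, rose by the same rule (1.0, adjusted p = 0.129). All 3 calls were lost without knockdown replicate 2, at log2 fold changes of -1.06, -0.77 and 0.80. That of *SEC24B* was also lost without NC replicate 1 (-1.01), and those of *PREB* (-0.84) and *SEC13* (0.66) without NC replicate 2. *SAR1A* had 216 and 339 FPKM in the NC libraries and 202 and 187 in the knockdown libraries (log2 fold change -0.48, adjusted p = 0.42).

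Of the 11 tested PRC1.6 genes beside *PCGF6*, 5 fell by the unadjusted rule and 0 rose, against 15.3% and 9.48% of all genes. They were *HDAC2* (-1.34), *HDAC1* (-1.28), *E2F6* (-1.27), *MGA* (-1.15) and *L3MBTL2* (-1.05). The list is short and was drawn up once the members were known, so nothing is read from its share. None passed with the adjusted p, which ran from 0.054 to 0.119 for these 5. Without knockdown replicate 2 all 5 calls were lost, at log2 fold changes of -0.97 to -0.71. Without NC replicate 1 those of *MGA* (-1.05) and *HDAC1* (-0.97) were lost, without NC replicate 2 that of *E2F6* (-0.99), and under quantile normalization that of *L3MBTL2* (-0.91). *HDAC1* and *HDAC2* encode histone deacetylases found in many complexes, while MGA, E2F6 and L3MBTL2 are specific to PRC1.6 among the Polycomb complexes. *BMI1*, which encodes the PCGF protein of another PRC1 complex, fell by 1.98 (adjusted p = 0.047), from 16.8 and 3.16 FPKM to 1.42 and 0.96, and lost the unadjusted call too without NC replicate 1 (-0.93). Its adjusted p ran from 7.3e-04 to 0.24 over the 11 alternatives and was above 0.05 in 6 of them. *PCGF1* (log2 fold change 0.34, adjusted p = 0.59) and *PCGF5* (0.74, adjusted p = 0.25), the other tested PCGF relatives, were above 0 and not called. *PCGF6* itself did not pass the rule.

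**Figure D5:**
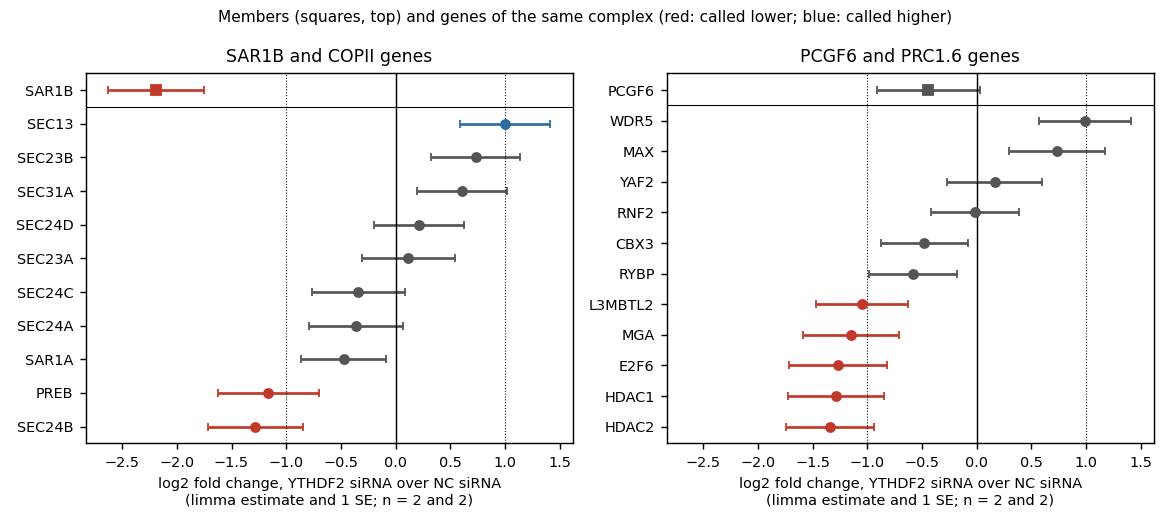
Log2 fold changes, YTHDF2 siRNA over NC siRNA, with bars of 1 SE (limma, n = 2 and 2 libraries) for *SAR1B* with 10 COPII genes (left) and *PCGF6* with 11 PRC1.6 genes (right); the members are squares, red marks falls and blue a rise by the unadjusted rule. *SAR1B* at -2.19 lies beyond all its partners, and 5 PRC1.6 genes lie between -1.34 and -1.05 while *PCGF6* is at -0.44.

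Among relatives, both other TRMT10 genes fell by the unadjusted rule, as *TRMT10A* did, against 15.3% of all genes. The list is short and was drawn up once the members were known, so nothing is read from its share. *TRMT10B* went from 24.4 and 38.8 to 16.2 and 12.3 FPKM (log2 fold change -1.07, adjusted p = 0.118). *TRMT10C*, a subunit of the mitochondrial RNase P, went from 63.7 and 199 to 50.7 and 22.9 FPKM (log2 fold change -1.69, adjusted p = 0.062). Both calls were lost without NC replicate 2, at log2 fold changes of -0.75 and -0.88, and that of *TRMT10B* also without knockdown replicate 2, at -0.89. Of the 6 tested Frizzled genes beside *FZD6*, none passed the rule. In the SRC family beside *YES1*, *FYN* rose (1.08), and *TGFB2*, a ligand held latent by LTBP proteins, rose (1.12). The adjusted p was 0.123 for *FYN* and 0.124 for *TGFB2*, and both calls were lost without NC replicate 2 and without knockdown replicate 2, that of *TGFB2* also without knockdown replicate 1 and without the filter on low values. In the 3 wider lists nearest to the members' roles, 10 of 111 tested histone and chromatin modifiers rose and 4 fell by the unadjusted rule, beside 9.48% and 15.3% of all genes. Of 68 tested growth factor and signalling genes 5 rose and 5 fell, and of 76 membrane trafficking genes 5 rose and 8 fell. None of these 3 shares was above those of all genes, and nothing is read from them.

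Other measures moved with the knockdown. Of the 8 tested oocyte markers, 5 rose by the unadjusted rule (*ZP2*, *ZP3*, *ZP4*, *ZAR1* and *MOS*) and none fell, against 9.48% and 15.3% of all genes. With the adjusted p in the rule 1 rose (*MOS*, adjusted p = 0.047), and the adjusted p of the other 4 ran from 0.060 to 0.15. Of the 3 tested cumulus cell markers, *HAS2* (adjusted p = 0.128) and *TNFAIP6* (adjusted p = 0.128) rose by the unadjusted rule, with a summed FPKM over the 9 measured markers of 35.0 to 36.6 in the NC and 66.8 to 68.8 in the knockdown libraries. Of the 6 tested trophectoderm markers, 1 fell and 0 rose by the unadjusted rule, beside 15.3% and 9.48% of all genes. The 1 that fell was *TEAD4* (-1.22, adjusted p = 0.089), from 3.31 and 1.15 to 0.23 and 0.38 FPKM. The log2 fold changes of the 6 ran from -1.22 to 0.56, with a median of -0.17. The 1 tested blood cell marker, *CD68* of macrophages, fell (-1.61, adjusted p = 0.032), from 3.19 and 3.92 to 0.71 and 0.3 FPKM. *PTPRC*, measured but too low to be tested, overlapped between the groups, at 0.58 and 0.4 against 0.54 and 0.65 FPKM. The gene *TMSB4X* took 4.00 and 5.35% of the summed FPKM in the NC libraries and 9.87 and 12.6% in the knockdown libraries. The part of these differences, or of a delay in development, in the falls of *SAR1B*, *SCPEP1* and *TRMT10A* was not tested.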

How the data were processed

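The study used 13 RNA-seq libraries, made with Smart-seq2 where the study sequenced embryos itself. Reads were aligned by the authors with HISAT2 (goat assembly ARS1). Those with a unique position were counted per gene with HTSeq, and the authors deposited FPKM values per gene and library; the deposited tables hold no counts. The authors called genes with DESeq2, which was not run here. Values were used as deposited, and 0 columns of values were left unused. Names on more than 1 line of a table were not used.

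Knockdown and NC libraries were compared with limma 3.58.1 in R 4.3.3 (lmFit, eBayes with a mean-variance trend, two-sided) on log2(FPKM + 1), over genes that averaged 1 FPKM or more, with Benjamini-Hochberg adjustment over all 11004 genes. Fold changes on this scale understate those of low genes. The fit was also run on simulated data with independent noise for each gene. Such data hold no shift shared by the genes of a library, so nothing about these libraries is read from that run. The labels do not say that replicates are separate pools of embryos from separate fertilizations, so p-values measure the spread between these libraries. Replicate numbers shared by the NC and knockdown libraries did not pair them (correlation of deviations -0.15).

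Fragments were recovered from FPKM steps within 0.02 of whole numbers, for 14900 genes. Python 3.11.15 with pandas 2.3.3 was used for the rest.

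Members and lists were chosen with earlier results of these data known. Named are all 13 members (2 names without a symbol lie outside the naming rule and were added so that each member is accounted for), *YTHDF2*, the 3 names just outside the limit, and partners, relatives and neighbours chosen once the members were known. Promoter motifs were not analysed here.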

Additional observations from a re-analysis of the deposited data

How the results depend on the processing

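The number of names that meet the rule was 13. It was 87 with a fold limit of 1.5, 4 with a limit of 3, and 8 after median-ratio rescaling of the 9 untreated libraries, which lost *FZD6*, *LOC102186205*, *LTBP1*, *TRMT10A* and *C5H12orf60*. It was 15 and 11 with a lowest 4-cell FPKM of 2 and 10, and 13 to 39 with 1 library left out. With the NC siRNA libraries in place of the untreated 8-cell libraries, chosen after seeing the data, 276 names met it, 7 of the 13 among them. Scaling each library by its fragments on the 14900 genes of recovered length, also chosen after seeing the data, left 9, all of them among the 13.

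In the knockdown, 1043 genes were called higher and 1685 lower. With the adjusted p in the call these were 227 and 651, with 1 member lower in place of 3. A filter at a mean of 5 FPKM left 1114 lower, and the median of the tested members was -0.97 in place of -0.43, from fewer members. With 1 library left out, where the lone library is assumed to vary like the other group, 545 to 1331 genes were higher and 1134 to 2085 lower, and 2 or 3 members were lower. Without NC replicate 2, 545 genes were higher. The fit with the replicate number as a block gave 1014 and 1674 genes and 3 members lower, and changed no call of a member. Of the partners it ended that of *SEC13* (1.0), as did median-ratio rescaling (0.99). The crossed replicate pairing, chosen after seeing the data, gave 1063 and 1747 genes and 3 members.

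Members near 0 changed sign. *LOC102186205* had -0.012 after median-ratio rescaling and -0.41 to 0.41 with 1 library left out. Over the same removals *PCGF6* ran from -1.02 to 0.13, *YES1* from -1.32 to 0.49, *LTBP1* from -0.035 to 0.75 and *LOC102190867* from -0.043 to 0.38. The cause was not tested.

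*SCPEP1* kept its direction and lost its call without the filter on low values and without NC replicate 1. *FOXI3* passed the unadjusted rule without knockdown replicate 1 (-1.10) and *YES1* without NC replicate 1 (-1.32). The SE of 0.41 to 0.57 for the members, from 2 libraries a group, limits what could be called.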
